A study of Arabidopsis thaliana with 12 samples.

Results

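Above-ground tissue of *tmt2-S* seedlings grown without sucrose was compared with that of WT seedlings grown without sucrose, across the whole transcriptome. The members of the comparison were the 3 *tmt2-S* and the 3 WT libraries of the no-sucrose medium, chosen by genotype and treatment from the 12 libraries of the series. All seedlings were *Arabidopsis thaliana* of the Columbia-0 background. WT carried no insertion, had no sucrose and was 5 days old by its labels. *tmt2-S* was the *tmt2* T-DNA line SAIL_124_H03 without sucrose, represented by 1 insertion allele, and was 7 days old. *tmt2-S* seedlings were those that had formed no true leaves, so they were picked by their growth as well as by their genotype. WT-Suc and *tmt2-L-Suc*, both 5 days old on medium with 1% sucrose, made up the other 6 libraries. Because *tmt2-S* was 2 days older than WT, genotype, age and the choice of seedlings without leaves cannot be told apart in the differences below. The contrast of *tmt2-L-Suc* with WT-Suc shares no library with it and has no difference in age, and its values are given beside it. The paper gives the name *tmt2-L* to *tmt2* seedlings with normal true leaves. By this name, the *tmt2* seedlings with sucrose differ from *tmt2-S* in growth class as well as in sucrose and age.

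TMT2 is a transporter of the vacuolar membrane that loads sugars into the vacuole, the main store of soluble sugar in a plant cell. When carbon runs short, plant cells switch on a set of dark-inducible genes under the energy-sensing kinase SnRK1, and they take energy from amino acids and other reserves. When sugar is plentiful, the TOR kinase and auxin favour ribosome production, cell division and cell expansion. The results are therefore ordered from carbon supply to photosynthesis, growth, hormones, stress and defence.

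Each library held between 20187960 and 21370051 expected counts, so depth differed little among libraries. Of 22953 genes in the table, 18506 had enough counts to be tested with edgeR's quasi-likelihood test. A gene is called risen or fallen in *tmt2-S* at an adjusted p of at most 0.05, and it counts as a differentially expressed gene (DEG) where its log2 fold change (log2FC) is also at least 1.2 in size. By these rules 20.7% of the genes tested had risen and 22.6% had fallen, together 43.3%, and these shares are the background for every list below. DEGs higher and lower made up 7.79% and 12% of the genes tested. The median log2FC of all genes tested was -0.01. The replicates of a group are described by the study as biological replicates, with no word on separate cultures, so the p-values measure only the spread between these libraries. A sucrose library stood apart in seed storage genes, since the summed FPKM of 13 seed markers was 663 in WT-Suc 2 against 3.34 and 11.7 in WT-Suc 1 and 3. Results that rest on the sucrose groups are therefore also given without WT-Suc 2, and without it the contrast of *tmt2-S* with WT had 3735 genes risen and 4100 fallen, against 3831 and 4185 with all libraries.

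*TMT2* itself (AT4G35300, chr4:16795775-16799823 on the minus strand of TAIR10.1) read 9.36, 7.83 and 7.04 FPKM in WT and 21.8, 25.4 and 23.2 FPKM in *tmt2-S*. FPKM are fragments scaled to the length of the transcript and to the number of mapped fragments in the library. All 3 *tmt2-S* libraries lay above all 3 WT libraries, with a log2FC of 1.48 ± 0.24 (SE) and an adjusted p of 0.000347. The insertions of this line lie in the last exon, and transcript upstream of them is still made. Counts over the whole gene therefore do not check the knockout.

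Sugar-starvation genes and the enzymes that burn amino acids both rose in *tmt2-S*. Of 20 sugar-starvation markers, 16 rose and 0 fell, with a median log2FC of 1.78. Of 22 amino acid catabolism genes, 19 rose and 0 fell, with a median of 1.90. The lists share 6 genes, all of which rose, and of the genes in 1 list alone 10 of 14 starvation markers and 13 of 16 amino acid catabolism genes rose. The 3 *tmt2-S* libraries did not stand equally high: the median log2 ratio of the starvation markers to the WT mean was 1.04, 1.70 and 2.02 in *tmt2-S* 1, 2 and 3, against -0.27, -0.20 and 0.42 in WT 1, 2 and 3. In 14 of the 20 markers all *tmt2-S* libraries lay above all WT libraries, which held for 24.4% of all genes tested.

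*BCAT-2*, a mitochondrial transaminase that opens the breakdown of leucine, isoleucine and valine, read 8.63, 5.14 and 15.3 FPKM in WT and 109, 162 and 369 FPKM in *tmt2-S*. The groups did not overlap, and the log2FC was 4.46 ± 0.67 (SE, adjusted p = 0.000226). *IVD*, the isovaleryl-CoA dehydrogenase further down the leucine path, read 19.48, 15.8 and 31.5 FPKM in WT and 179, 249 and 305 FPKM in *tmt2-S*, a log2FC of 3.44 ± 0.28 (adjusted p = 3.3e-06). Both steps of the pathway were thus higher in every *tmt2-S* library. *ERD5*, the proline dehydrogenase that starts proline breakdown, read 59.0, 71.2 and 134 FPKM in WT and 463, 665 and 872 FPKM in *tmt2-S*, a log2FC of 2.91 ± 0.48. *ETFQO*, which passes the electrons of these dehydrogenases to the respiratory chain, rose by a log2FC of 2.04. The senescence- and dark-induced gene *SEN1* read 297, 291 and 732 FPKM in WT and 957, 2146 and 4527 FPKM in *tmt2-S*, a log2FC of 2.49 ± 0.57. WT 3 was the highest WT library for *SEN1* and *BCAT-2*, and it still lay below every *tmt2-S* library.

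*ASN1*, the dark-inducible asparagine synthetase, stores nitrogen released from amino acids. It read 113, 143 and 312 FPKM in WT and 244, 631 and 1155 FPKM in *tmt2-S*. Here *tmt2-S* 1 lay below WT 3, and the log2FC of 1.88 ± 0.58 (adjusted p = 0.0199) lost its call without WT 1 (log2FC 1.63), without WT 2 (1.72) or without *tmt2-S* 3 (1.203). Its promoter is shown because it carries the TATCCA element, which was found in 50% of the promoters of the 20 starvation markers, in 36.4% of those of the amino acid catabolism genes and in 16.8% of those of all genes tested. The element was as frequent in lists that fell, in 50% of photosystem and 42.9% of antenna promoters. Motifs were searched on both strands from 250 bases before to 50 bases after the annotated start of each gene (RefSeq annotation, TAIR10.1), and a match is a description of the sequence and not a site of binding. In the 250 bases before the start of *ASN1* (chr3:17441432-17441681, minus strand), printed 5′ to 3′ along the gene, the capitals mark CACGTG, then TATCCA and then AAACCCTA.
ASN1: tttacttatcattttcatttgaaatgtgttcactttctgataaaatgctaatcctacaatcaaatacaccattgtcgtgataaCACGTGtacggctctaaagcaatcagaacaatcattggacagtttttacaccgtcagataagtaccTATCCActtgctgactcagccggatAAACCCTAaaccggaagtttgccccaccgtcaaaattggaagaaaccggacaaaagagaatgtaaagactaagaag

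Genes of autophagy, which recycles cell content to the vacuole, moved less. Of 27 tested members 8 rose and 1 fell, with a median log2FC of 0.40, and 15 rose without *tmt2-S* 1. *ATG8H*, which tags the forming autophagosome membrane, read 9.39, 6.37 and 11.1 FPKM in WT and 14.0, 39.96 and 45.1 FPKM in *tmt2-S*, a log2FC of 1.83 ± 0.38. The peroxisome biogenesis genes named PEX, whose organelle oxidises fatty acids, had 10 risen and 2 fallen of 19. Among papain-like cysteine proteases, 4 rose and 8 fell of 18. *RD21A*, a vacuolar protease of drying and ageing leaves, read 222, 171 and 180 FPKM in WT and 368, 573 and 539 FPKM in *tmt2-S* (log2FC 1.33 ± 0.25). Its relative AT4G11320 went the other way, from 11.4, 7.02 and 8.24 FPKM in WT to 0.14, 0.07 and 0.07 FPKM in *tmt2-S*, where its libraries held 5, 2 and 2 counts. Subunits of the 26S proteasome, the other large protein-degrading system, were flat, with 2 of 27 risen and 0 fallen.

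Starch metabolism moved in both directions, mostly down: 19 of 36 genes tested fell, 4 rose, and the median log2FC was -0.75. *PHS1*, the plastid starch phosphorylase, read 33.0, 36.8 and 34.9 FPKM in WT and 6.11, 4.57 and 3.82 FPKM in *tmt2-S*, a log2FC of -2.89 ± 0.18 (adjusted p = 8.0e-07). The plastid α-amylase *AMY3* fell by 2.09 and the phosphoglucan phosphatase *LSF2* by 2.72 on the log2 scale. In contrast, the β-amylases *BAM1* and *BMY3* rose by log2FC of 1.82 and 1.89. *BAM1* read 54.2, 38.5 and 28.9 FPKM in WT and 126, 198 and 122 FPKM in *tmt2-S*. *SEX1*, the glucan water dikinase needed to open starch granules, read 13.4, 13.1 and 11.8 FPKM in WT and 11.3, 12.1 and 10.6 FPKM in *tmt2-S* and did not pass the test (log2FC -0.21 ± 0.18).

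Trehalose 6-phosphate is a signal of sucrose supply, and the enzymes around it split evenly, with 5 risen and 5 fallen of 17. *TPS1*, the synthase that makes the signal, read 11.5, 11.1 and 9.58 FPKM in WT and 3.93, 4.65 and 2.81 FPKM in *tmt2-S*, a log2FC of -1.54 ± 0.21 (adjusted p = 0.000118). The phosphatase gene *TPPG* rose from 1.82, 4.01 and 1.19 FPKM in WT to 7.97, 15.4 and 8.29 FPKM in *tmt2-S* and *TPPI* by a log2FC of 1.59, while *TPPE* fell by 2.26. *TPS10*, a class II member without clear synthase activity, rose by 1.40.

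**Figure D1:**
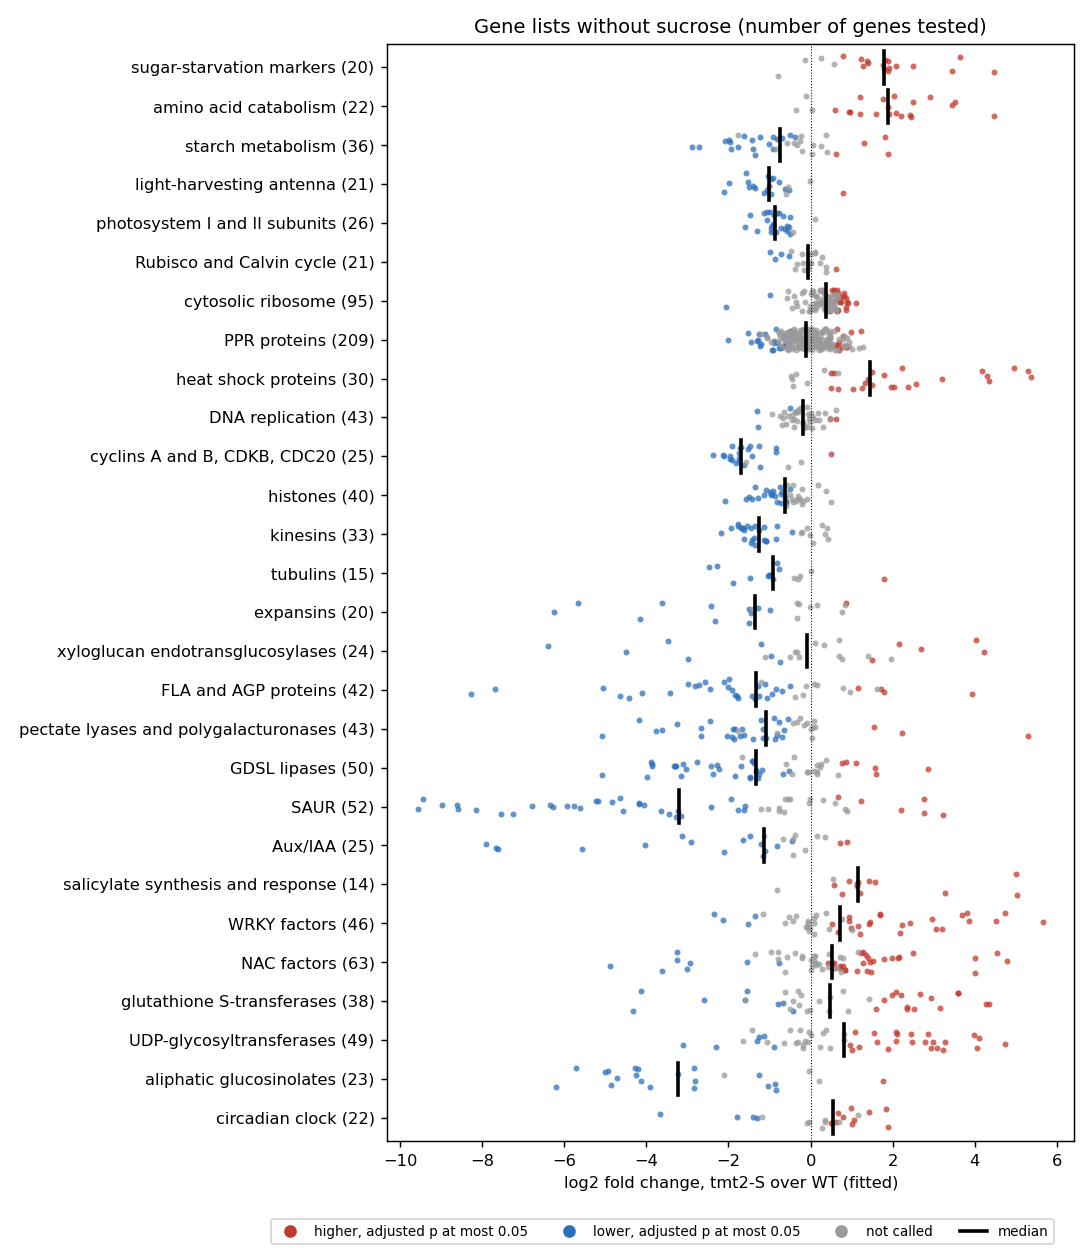
Fitted log2FC of *tmt2-S* over WT (x axis) for the tested genes of 28 lists (y axis, number tested in parentheses). Each point is a gene, red where it rose, blue where it fell and grey where it was not called, and the black bar is the median of the list. Starvation markers, amino acid catabolism and heat shock proteins lie to the right, and SAUR genes and aliphatic glucosinolate genes lie farthest to the left, with medians of -3.19 and -3.23.

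Photosynthetic light reactions fell as a block, and carbon fixation genes were mostly not called. Of 26 tested subunits of photosystems I and II, 24 fell and 0 rose, with a median log2FC of -0.86, and in 24 all *tmt2-S* libraries lay below all WT libraries, as in 26.6% of all genes tested. Of 21 light-harvesting antenna genes, 17 fell and 1 rose, with a median of -1.01. The falls were shallow but uniform, since only 3 photosystem and 7 antenna genes were DEGs lower. Of 21 Rubisco and Calvin cycle genes, 4 fell, 1 rose and 16 were not called, with a median of -0.07. In these bulk libraries, fewer cells of a type and less RNA per cell cannot be told apart.

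Antenna transcripts made up 16.8, 20.1 and 20.7% of the summed FPKM of the WT libraries and 11.1, 8.56 and 10.7% of those of *tmt2-S*. Photosystem subunits made up 15.96, 14.998 and 13.8% in WT and 9.35, 8.61 and 10.7% in *tmt2-S*. The groups overlapped in neither list. For Rubisco and Calvin cycle genes the shares were 11.97, 10.8 and 9.17% in WT and 10.9, 8.50 and 8.08% in *tmt2-S*, with overlap.

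*LHCB2.3*, an antenna protein of photosystem II, read 3195, 2778 and 2560 FPKM in WT and 689, 734 and 787 FPKM in *tmt2-S*. The replicates lay close together in both groups, and the log2FC was -1.99 ± 0.18 (adjusted p = 6.9e-06). *CAB3* read 9998, 12512 and 13438 FPKM in WT and 3696, 2165 and 2620 FPKM in *tmt2-S* (log2FC -2.12 ± 0.23). Gene copies of this family are similar in sequence, and reads shared between them were divided by RSEM, so single members are less certain than the list. *PSBQ-2*, a subunit of the oxygen-evolving complex, read 2933, 2972 and 2906 FPKM in WT and 1002, 991 and 1267 FPKM in *tmt2-S*, a log2FC of -1.47 ± 0.15. The photosystem I subunit *PSAO* fell by 1.30. AT1G76570, an antenna-like gene, was the member that rose, by a log2FC of 0.79.

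CACGTG and ACGTGTC were frequent in the promoters of these genes. CACGTG, the G-box, lay in 50% of the 26 photosystem promoters and 23.8% of the 21 antenna promoters, against 9.04% of all promoters. ACGTGTC lay in 34.6 and 23.8% of them, against 5.15% of all, and it shares bases with CACGTG where CACGTGTC occurs and with TGACGT where TGACGTGTC occurs. Both were also frequent in circadian clock promoters, at 50 and 40.9%, a list in which 10 of 22 genes rose and 4 fell. CACGTG lay in 9.87% of promoters of DEGs higher and 9.49% of DEGs lower, and ACGTGTC in 7.3 and 4.16%. The promoters of *LHCB2.3* (chr3:10255656-10255905, plus strand) and *PSBQ-2* (chr4:2673244-2673493, minus strand) are shown as examples from lists in which most genes fell. Capitals mark TATCCA, then CACGTG and the merged pair of TGACGT with ACGTGTC in *LHCB2.3*. In *PSBQ-2* they mark TTGACT, then TTGACC and TGACGT, both read on the other strand, then CACGTG and another CACGTG merged with ACGTGTC.
LHCB2.3: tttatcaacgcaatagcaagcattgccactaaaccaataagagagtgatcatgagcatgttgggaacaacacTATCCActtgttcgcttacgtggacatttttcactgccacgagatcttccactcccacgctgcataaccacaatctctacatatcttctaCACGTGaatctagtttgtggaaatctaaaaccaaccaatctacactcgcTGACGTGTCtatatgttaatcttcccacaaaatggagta
PSBQ-2: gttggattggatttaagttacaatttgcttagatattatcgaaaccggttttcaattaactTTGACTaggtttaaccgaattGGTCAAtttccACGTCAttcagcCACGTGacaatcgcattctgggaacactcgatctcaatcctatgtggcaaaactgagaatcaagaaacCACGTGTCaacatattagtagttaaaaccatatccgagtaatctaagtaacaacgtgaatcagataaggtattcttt

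Of the small subunit genes of Rubisco, 1 of the pair named here was called, and the difference between them was not tested. Their sequences are similar too, so the division of shared reads bears on them as on the antenna genes. *RBCS1A* read 41513, 35452 and 29389 FPKM in WT and 41633, 25245 and 28132 FPKM in *tmt2-S*, with a log2FC of -0.21 ± 0.23 that did not pass the test. *RBCS3B* read 28615, 26389 and 23129 FPKM in WT and 16034, 11851 and 12581 FPKM in *tmt2-S*, a log2FC of -0.99 ± 0.17 (adjusted p = 0.000643). *RCA*, which activates Rubisco, had a log2FC of 0.01 ± 0.19 and was not called. Chlorophyll synthesis had 8 of 24 genes fallen and 2 risen, and 5 fallen without WT 2 or without *tmt2-S* 3. *PORB*, a light-dependent enzyme late in this pathway, read 154, 151 and 157 FPKM in WT and 29.2, 24.4 and 25.8 FPKM in *tmt2-S*, a log2FC of -2.58 ± 0.16 (adjusted p = 6.5e-07). *HEMA2*, the glutamyl-tRNA reductase form that is less tied to light, rose from 14.5, 17.6 and 16.8 FPKM in WT to 40.9, 44.1 and 37.6 FPKM in *tmt2-S*. Of 10 chlorophyll breakdown genes 5 rose and 2 fell, among them *NYE1*, the magnesium-dechelatase of leaf yellowing (log2FC 1.23), and *CLH1*, a chlorophyllase (log2FC -2.13).

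Genes of mitosis fell, and genes of DNA replication were largely not called. Of 25 tested A- and B-type cyclins, B-type cyclin-dependent kinases and CDC20 activators, 21 fell and 1 rose, with a median log2FC of -1.70. The per-library medians were -0.98, -1.41 and -1.72 in *tmt2-S* 1, 2 and 3 and between -0.07 and 0.05 in WT. Of 43 DNA replication genes, 3 fell and 2 rose, with a median of -0.19. Without *tmt2-S* 1, 12 replication genes fell, and the median of that list in *tmt2-S* 1 was 0.11, against -0.24 and -0.52 in *tmt2-S* 2 and 3. Among 9 D-type cyclins, which link growth signals to division, 5 fell and 0 rose.

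*CYCA2;4*, which acts up to mitosis, read 7.82, 7.23 and 6.95 FPKM in WT and 2.82, 1.75 and 1.89 FPKM in *tmt2-S*, a log2FC of -1.81 ± 0.20. *CDC20.1*, which activates the complex that ends mitosis, read 17, 24.6 and 22.9 FPKM in WT and 11.2, 5.27 and 3.34 FPKM in *tmt2-S* (log2FC -1.74 ± 0.33), and *tmt2-S* 1 was again the library nearest to WT. The sugar- and cytokinin-responsive *CYCD3;1* fell by 1.00 and *CYCD1;1* by 2.16 on the log2 scale. *CYCA3;2*, an S-phase cyclin, was the member that rose, by 0.50.

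Histone and cytoskeleton genes were lower too. Histone genes had 22 of 40 fallen and 0 risen, with a median log2FC of -0.61. Among kinesins, motor proteins of which many act in the spindle and the cell plate, 24 of 33 fell and 0 rose (median -1.27). TPX2-family genes, whose founding member helps to assemble spindles, had 9 of 10 fallen. Tubulins had 10 of 15 fallen and 1 risen. *TUB5* read 76.0, 94.6 and 101 FPKM in WT and 22.1, 16.8 and 18.5 FPKM in *tmt2-S*, a log2FC of -2.27 ± 0.18 (adjusted p = 2.5e-06). *TUA1*, best known from pollen, was the tubulin that rose, from 25.04, 24.8 and 28.4 FPKM in WT to 75.8, 103 and 98.7 FPKM in *tmt2-S* (log2FC 1.79 ± 0.15).

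Translation genes moved little as groups. Of 95 cytosolic ribosomal protein genes 23 rose and 2 fell, with a median log2FC of 0.38, and the 24.2% that rose compare with 20.7% of all genes tested. The risen share differed by library, since the list's median was 0.92 in *tmt2-S* 1 and -0.04 and 0.07 in *tmt2-S* 2 and 3. Without *tmt2-S* 1 the median was 0.02, with 13 risen and 9 fallen, and leaving out WT 1, WT 2 or WT 3 left 14, 15 or 14 risen. Plastid ribosomal protein genes had 1 risen and 2 fallen of 26, and 5 fell without *tmt2-S* 1. Pentatricopeptide repeat proteins, which edit and process organelle RNA, had 15 risen and 22 fallen of 209, and 12 fell without WT 3 and 13 without *tmt2-S* 2. Translation initiation factors named EIF were an exception, with 11 of 20 risen and 1 fallen.

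Cell wall genes fell in most families, and a few members rose steeply. Expansins loosen the wall, and 11 of 20 fell and 1 rose, with a median log2FC of -1.36. Fasciclin-like and arabinogalactan proteins, which are cell surface glycoproteins, had 29 of 42 fallen and 4 risen (median -1.32). Pectate lyases and polygalacturonases, which cut pectin, had 28 of 43 fallen and 3 risen (median -1.10). GDSL lipases, a family with cutin-building and cutin-cutting members, had 30 of 50 fallen and 6 risen (median -1.33). Cellulose synthase and cellulose synthase-like genes had 11 of 30 fallen and 4 risen, and class III peroxidases 16 of 43 fallen and 8 risen.

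*EXPA8* read 87.7, 69.8 and 109 FPKM in WT and 2.25, 0.90 and 0.41 FPKM in *tmt2-S*, a log2FC of -6.26 ± 0.47 (adjusted p = 2.3e-06). In *tmt2-L-Suc* it read 36.9, 73.0 and 46.3 FPKM against 70.6, 54.7 and 59.3 FPKM in WT-Suc and was not called. The 3 *tmt2-S* libraries were the lowest of the 12 for this gene. The GDSL lipase gene AT4G18970 fell by 3.04 without sucrose and rose by a log2FC of 0.94 with sucrose, a call lost without WT-Suc 2 (0.89) or without WT-Suc 3 (0.75). *ATCSLA09*, a glucomannan synthase, read 17.7, 17.6 and 14.9 FPKM in WT and 3.29, 1.42 and 0.66 FPKM in *tmt2-S* (log2FC -3.27 ± 0.41).

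Xyloglucan endotransglucosylases cut and rejoin the polymers that tether cellulose. This family had 5 risen (20.8%) and 7 fallen (29.2%) of 24, against 20.7 and 22.6% of all genes tested. *XTH24* read 53.2, 67.1 and 132 FPKM in WT and 570, 1693 and 2476 FPKM in *tmt2-S*, a log2FC of 4.22 ± 0.53 (adjusted p = 6.4e-05). *XTH8* went the other way, from 16.4, 25.1 and 27.9 FPKM in WT to 2.24, 2.43 and 1.72 FPKM in *tmt2-S* (log2FC -3.47 ± 0.26). Among the other wall families, *CSLE1* rose from 14.7, 8.15 and 11.02 FPKM in WT to 115, 126 and 83.8 FPKM in *tmt2-S* (log2FC 3.21 ± 0.22). *AGP5* and *FLA13* were among the surface proteins that rose, by log2FC of 3.93 and 1.71. *GASA1*, a small gibberellin-regulated peptide, read 189, 218 and 333 FPKM in WT and 1431, 3032 and 4898 FPKM in *tmt2-S* (log2FC 3.63 ± 0.40). Of 4 tested genes of such peptides 1 rose (25%) and 2 fell (50%), with a median of -1.24. Those that fell were *GASA6* and *GASA4*.

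**Figure D2:**
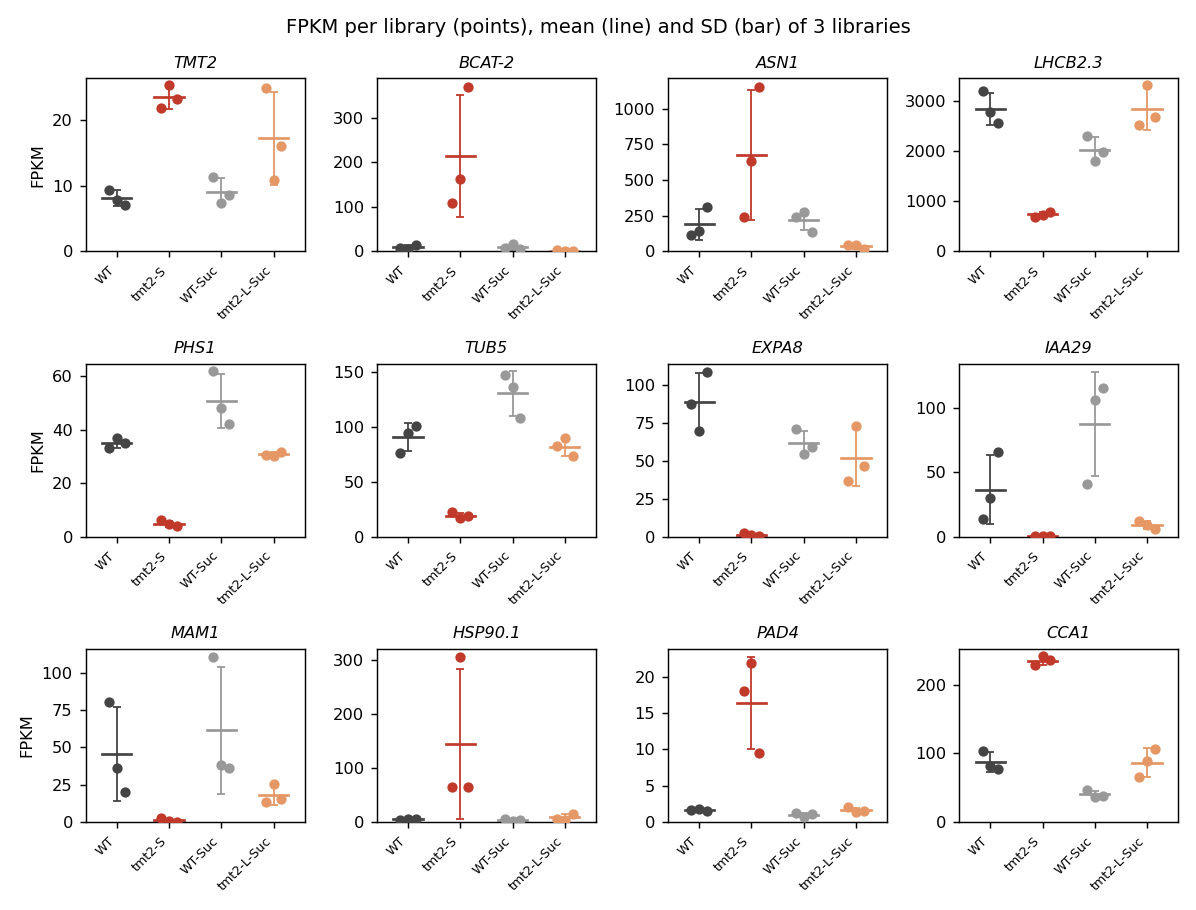
FPKM of 12 genes (y axis of each panel, linear, from 0) in the 4 groups (x axis). Points are the 3 libraries of a group, the line is their mean and the bar their SD. *LHCB2.3*, *PHS1*, *TUB5* and *EXPA8* are lowest in *tmt2-S*, while *IAA29* is also lower in *tmt2-L-Suc* than in WT-Suc and *CCA1* also higher. *HSP90.1* has 1 *tmt2-S* library at 306 FPKM and 2 at 64.2 and 64.3 FPKM.

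Auxin-responsive families were low in *tmt2-S*. SAUR genes encode short-lived proteins that promote cell expansion. Of 52 tested, 32 fell and 6 rose, and all 32 that fell were DEGs. The median log2FC was -3.19, between -2.91 and -2.31 with 1 library left out and -1.98 with no filter on low counts. The per-library medians were smaller, at -1.53, -1.96 and -1.58 in *tmt2-S* and between -0.23 and 0.22 in WT. Summed FPKM of the SAUR genes was 840, 908 and 1015 in WT and 518, 535 and 661 in *tmt2-S*. Aux/IAA repressors are induced by auxin and feed back on it, and 15 of 25 fell and 2 rose (median -1.14). *IAA19* read 6.45, 19.53 and 31.4 FPKM in WT and 0.67, 0.41 and 0.13 FPKM in *tmt2-S*, a log2FC of -5.57 ± 0.68. *IAA29* read 13.6, 30.1 and 65.9 FPKM in WT and 0.06, 0.06 and 0.44 FPKM in *tmt2-S*, where its libraries held 1, 1 and 8 counts. The WT libraries thus spread widely for both genes, and every one of them lay above every *tmt2-S* library. *SAUR36*, a member tied to leaf senescence, rose from 1.73, 1.94 and 3.15 FPKM in WT to 23.1, 17.8 and 24.4 FPKM in *tmt2-S* (log2FC 3.23 ± 0.41).

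Auxin response factors, gibberellin oxidases and genes of brassinosteroid synthesis fell more often than they rose. Auxin response factors, which bind auxin-responsive promoters, had 7 of 15 fallen and 0 risen. *ARF11* read 6.75, 6.74 and 7.77 FPKM in WT and 2.03, 1.33 and 1.72 FPKM in *tmt2-S*, a log2FC of -2.07 ± 0.18. Gibberellin oxidases, which make or inactivate gibberellin, had 4 of 7 fallen and 0 risen. Brassinosteroid synthesis had 4 of 10 fallen and 1 risen, and *DWF4*, a rate-limiting hydroxylase of this pathway, read 8.80, 10.3 and 19.2 FPKM in WT and 1.61, 4.41 and 4.39 FPKM in *tmt2-S* (log2FC -1.89 ± 0.38). Genes of abscisic acid, the hormone of drought, had 4 risen (17.4%) and 5 fallen (21.7%) of 23. These shares lay near the 20.7 and 22.6% of all genes tested. In this list 2 fell without WT 1 and 3 without *tmt2-S* 3. *NCED3*, which makes the committed precursor of abscisic acid, fell from 6.04, 5.53 and 4.58 FPKM in WT to 1.42, 1.09 and 0.62 FPKM in *tmt2-S*. *HAB1*, a phosphatase that holds the signal of this hormone down, rose from 15.7, 15.2 and 16.1 FPKM to 52.9, 68.2 and 61.5 FPKM (log2FC 1.93 ± 0.15). *PP2CA*, a phosphatase of the same clade, went the other way, from 31.7, 22.8 and 17.4 FPKM to 11.7, 10.9 and 7.28 FPKM (log2FC -1.32 ± 0.37), and lost its call without WT 1 (log2FC -1.03).

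Shade and elongation factors were low as well. Light signalling and shade genes had 15 of 32 fallen and 6 risen. *HB-2*, a homeobox factor induced by canopy shade, read 83.2, 168 and 217 FPKM in WT and 8.27, 6.47 and 12.3 FPKM in *tmt2-S*, a log2FC of -4.13 ± 0.55 (adjusted p = 8.9e-05). With sucrose it was also lower in *tmt2-L-Suc*, by 3.83 on the log2 scale. *PIL1* and *PAR1*, likewise shade-induced, fell by 4.07 and 3.54. *PRE1*, a small bHLH factor that promotes elongation, read 27.9, 23.2 and 47.8 FPKM in WT and 2.36, 0.95 and 1.98 FPKM in *tmt2-S* (log2FC -4.24 ± 0.33). Across the bHLH family 45 of 96 genes fell and 11 rose, with a median of -0.76. *ELIP2*, a photoprotective protein of high light, rose from 41.6, 17.1 and 23.9 FPKM in WT to 625, 784 and 319 FPKM in *tmt2-S*.

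Among the other families of transcription factors, homeobox and MYB genes fell more often than they rose, and ERF and DREB genes rose more often. Homeobox factors had 32 of 69 fallen and 9 risen. *HB4*, a shade-induced relative of *HB-2*, read 14.2, 26.5 and 39.6 FPKM in WT and 0.92, 0.62 and 0.98 FPKM in *tmt2-S*, a log2FC of -5.0 ± 0.53. MYB factors had 23 of 59 fallen and 7 risen, or 15 fallen of 53 with the WT and *tmt2-S* libraries alone. ERF and DREB factors, many of them stress-induced, had 36 of 94 risen and 14 fallen. *Rap2.6L* read 4.46, 3.49 and 4.75 FPKM in WT and 91.0, 111 and 95.4 FPKM in *tmt2-S* (log2FC 4.51 ± 0.30, adjusted p = 1.1e-06), and it also rose with sucrose, by 2.13. The bZIP family had 13 risen (25%) and 11 fallen (21.2%) of 52, near the 20.7 and 22.6% of all genes tested. *bZIP1*, a factor of the low-energy response downstream of SnRK1, read 101, 88.1 and 94.8 FPKM in WT and 242, 294 and 227 FPKM in *tmt2-S* (log2FC 1.38 ± 0.32), and with sucrose it fell by 1.56. *BZIP34* and *BZIP61*, a pair of related factors, fell by 3.07 and 3.90 without sucrose.

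Clock genes showed the morning components high. Of 22, 10 rose and 4 fell, with a median log2FC of 0.56. *CCA1* read 104, 81.1 and 77.2 FPKM in WT and 229, 243 and 236 FPKM in *tmt2-S* (log2FC 1.42 ± 0.21). *LHY* rose by 1.88, and *ELF4* of the evening complex fell by 3.68. The time of day at which each group was collected is not given in the sources used here, and its part in these values was not tested.

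Heat shock proteins and their factors rose. Of 30 chaperone genes tested 23 rose and 0 fell, with a median log2FC of 1.44, and 18 were DEGs. The median log2 ratio of the list to the WT mean was 1.38, 1.69 and 0.95 in *tmt2-S* 1, 2 and 3 and between -0.04 and 0.01 in WT. *HSP90.1* read 3.63, 4.84 and 5.08 FPKM in WT and 64.2, 306 and 64.3 FPKM in *tmt2-S*, a log2FC of 4.95 ± 0.73. The small chaperone *HSP17.6A* read 0.57, 1.04 and 3.63 FPKM in WT and 42.4, 158 and 23.1 FPKM in *tmt2-S* (log2FC 5.36 ± 0.77). In both, *tmt2-S* 2 was the highest library. *HSC70-1*, the abundant constitutive chaperone, read 309, 398 and 436 FPKM in WT and 1414, 1583 and 1076 FPKM in *tmt2-S* (log2FC 1.80 ± 0.19). Among 18 heat shock factors 8 rose and 2 fell. *HSFA2*, the factor that prolongs the heat response, rose by a log2FC of 5.92, while *HSFC1* fell from 18.3, 16.8 and 15.1 FPKM in WT to 5.73, 5.39 and 3.76 FPKM in *tmt2-S*.

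Defence genes of the salicylate branch rose, and those of the jasmonate branch fell more often than they rose, with a median near 0. Of 14 salicylate synthesis and response genes, 12 rose and 0 fell, with a median log2FC of 1.15, and 6 rose without *tmt2-S* 2. *PAD4*, a lipase-like partner of the resistance hub EDS1, read 1.59, 1.80 and 1.51 FPKM in WT and 18.03, 21.9 and 9.47 FPKM in *tmt2-S*, a log2FC of 3.28 ± 0.29 (adjusted p = 5.1e-06). *SARD1*, which switches on salicylate synthesis, read 0.25, 0.23 and 0.02 FPKM in WT and 5.13, 9.63 and 2.68 FPKM in *tmt2-S*. *PR1*, the usual output marker of this branch, had too few counts to be tested. Intracellular immune receptors of the TIR-NBS-LRR and NB-ARC types had 48 of 112 risen and 8 fallen (median 0.44). Of 26 jasmonate genes 8 fell (30.8%) and 3 rose (11.5%), against 22.6 and 20.7% of all genes tested. Their median was 0.03 and ranged from -0.29 to 0.27 with 1 library left out. *VSP2*, a storage protein induced by jasmonate, fell by 2.98. Of 11 ethylene synthesis genes 2 rose (18.2%) and 4 fell (36.4%), with a median of -0.21. *ACS7*, which makes the precursor of ethylene, was among those that rose. It read 1.95, 1.41 and 3.6 FPKM in WT and 69.3, 107 and 59.8 FPKM in *tmt2-S* (log2FC 5.05 ± 0.41).

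WRKY factors, which act in defence and senescence, had 23 of 46 risen and 4 fallen (median 0.72). *WRKY26* read 1.58, 3.14 and 3.73 FPKM in WT and 54.5, 70.4 and 83.8 FPKM in *tmt2-S* (log2FC 4.51 ± 0.40). *WRKY45* read 2.15, 0.99 and 1.63 FPKM in WT and 87.9, 75.8 and 86.5 FPKM in *tmt2-S*, with a log2FC of 5.67 ± 0.25, while it read 0.49, 0.27 and 0.50 FPKM in WT-Suc and 0.39, 0.26 and 0.48 FPKM in *tmt2-L-Suc*. TTGACC or TTGACT, which contain the W-box core that WRKY proteins bind, lay in 42.5% of the promoters of the 1439 DEGs higher, 28.6% of those of the 2213 DEGs lower and 32.4% of all 18494. Its promoter (chr3:327413-327662, minus strand) is shown for its pair of W-box matches. Capitals mark TTGACT on the other strand, then CACGTG, then TATCCA on the other strand and TTGACC.
WRKY45: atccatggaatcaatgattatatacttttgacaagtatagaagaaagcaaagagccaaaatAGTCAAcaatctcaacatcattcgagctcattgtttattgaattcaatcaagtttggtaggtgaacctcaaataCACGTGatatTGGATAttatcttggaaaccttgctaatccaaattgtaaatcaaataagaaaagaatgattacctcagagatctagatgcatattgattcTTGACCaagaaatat

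NAC factors, many of them tied to senescence, had 28 of 63 risen and 8 fallen, or 4 fallen of 53 when the WT and *tmt2-S* libraries were fitted alone. *NAC6* (AT5G39610), a regulator of leaf ageing, read 1.03, 1.08 and 1.23 FPKM in WT and 24.2, 50.7 and 20.9 FPKM in *tmt2-S*, a log2FC of 4.79 ± 0.35 (adjusted p = 2.1e-06). *RD26*, a dehydration-induced NAC factor, rose by 1.47. In the other motif classes, TGGGCC or TGGGCT lay in 12.9% of the promoters of DEGs higher and 15.8% of those of DEGs lower, against 26.3% of all, and AAACCCTA in 2.78 and 3.07%, against 5.49% of all. Both motifs are common in cytosolic ribosomal protein promoters, where they lay in 76.8 and 51.6% of 95.

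Cysteine-rich receptor kinases and calcium sensors rose more often than they fell. Of 25 cysteine-rich receptor-like kinases 12 rose and 3 fell, and 7 rose without *tmt2-S* 2. *CRK13* read 0.29, 0.40 and 0.55 FPKM in WT and 9.36, 10.2 and 5.06 FPKM in *tmt2-S* (log2FC 4.28 ± 0.34). Calmodulin-like proteins and calcium-dependent kinases had 17 of 41 risen and 7 fallen. *CML41*, a calmodulin-like protein, read 0, 0.15 and 0.15 FPKM in WT and 11.4, 37.7 and 30.5 FPKM in *tmt2-S*, and it was not called with sucrose. In contrast, the conventional calmodulins *CAM4*, *CAM5* and *CAM7* fell by 0.85, 0.84 and 0.92 on the log2 scale. Jacalin lectins, sugar-binding proteins of which several act on glucosinolate breakdown, had 13 of 18 fallen and 1 risen. *JAL22* read 62.5, 62.0 and 75.5 FPKM in WT and 4.90, 4.13 and 3.01 FPKM in *tmt2-S*, a log2FC of -4.13 ± 0.21 (adjusted p = 2.5e-07).

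Detoxification families other than cytochromes P450 rose more often than they fell. Of 49 UDP-glycosyltransferases, which attach sugars to small molecules, 23 rose and 6 fell (median 0.81), and 3 fell without WT 3. Of 38 glutathione S-transferases 15 rose and 8 fell, and 5 fell without WT 2 or without *tmt2-S* 3. ABC transporters had 35 of 91 risen and 11 fallen, and in the ABCC branch, which pumps conjugates into the vacuole, 11 of 14 rose and 1 fell. *GSTF8* read 317, 305 and 284 FPKM in WT and 1102, 2031 and 1190 FPKM in *tmt2-S* (log2FC 2.21 ± 0.23). *GSTU20*, which takes part in aliphatic glucosinolate synthesis, fell from 135, 86.0 and 58.7 FPKM in WT to 11.7, 3.82 and 0.98 FPKM in *tmt2-S* (log2FC -4.14 ± 0.66). The cytochrome P450 gene *CYP81D8*, a common marker of chemical and oxidative stress, read 0.99, 1.45 and 1.39 FPKM in WT and 37.1, 71.4 and 30 FPKM in *tmt2-S*. Cytochromes P450 as a family were evenly split, with 39 risen and 41 fallen of 121. *CYP89A9*, which acts on chlorophyll breakdown products, read 1.33, 0.74 and 0.84 FPKM in WT and 24.4, 39.6 and 41.1 FPKM in *tmt2-S* (log2FC 5.13 ± 0.30), and *CYP83A1* of aliphatic glucosinolate synthesis fell by 4.13. *CAT2*, the leaf catalase of photorespiration, rose from 912, 631 and 668 FPKM to 1950, 3075.07 and 2668 FPKM (log2FC 1.75 ± 0.23). *AOX1A*, the alternative oxidase of stressed mitochondria, rose by 1.44.

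Aliphatic glucosinolates are sulfur-containing defence compounds made from methionine, and their genes fell steeply: 19 of 23 fell, 1 rose, and the median log2FC was -3.23. *MAM1*, which elongates the methionine chain, read 80.6, 36.0 and 20.01 FPKM in WT and 2.26, 0.44 and 0.03 FPKM in *tmt2-S*, a log2FC of -5.71 ± 0.89 (adjusted p = 0.000284). The regulators *MYB28* and *MYB29* fell by 3.23 and 4.21. The WT libraries were themselves spread, with list medians of 0.63, -0.13 and -0.83 against the WT mean, but those of *tmt2-S* were lower at -2.05, -2.69 and -2.60. *NSP5*, which diverts broken-down glucosinolates to nitriles, was the member that rose (log2FC 1.77). Indole glucosinolate and camalexin genes had 7 of 16 fallen and 3 risen. *CYP79B2*, the entry enzyme from tryptophan, fell by 2.29, and *CYP81F2*, which modifies indole glucosinolates in immune responses, rose by 2.91.

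Flavonoid genes were mostly not called, with 4 risen and 2 fallen of 21, and 7 fell without *tmt2-S* 1. *TT4*, chalcone synthase, read 73.0, 46.2 and 53.2 FPKM in WT and 267, 156 and 101 FPKM in *tmt2-S* (log2FC 1.56 ± 0.35). Amino acid transporters had 13 risen and 19 fallen of 49. *UMAMIT33*, of a family of amino acid exporters, rose from 4.70, 3.18 and 9.31 FPKM in WT to 46.3, 66.1 and 71.7 FPKM in *tmt2-S* (log2FC 3.40 ± 0.40), whereas UMAMIT genes as a family had 13 of 25 fallen and 2 risen. Iron homeostasis had 7 risen and 8 fallen of 26, or 5 fallen of 22 with the WT and *tmt2-S* libraries alone. *FER1*, a plastid iron store, read 57.3, 112 and 182 FPKM in WT and 484, 552 and 735 FPKM in *tmt2-S* (log2FC 2.32 ± 0.36). Genes of nitrate and ammonium transport and assimilation had 16 risen and 11 fallen of 39, with a median log2FC of 0.26. Their summed FPKM was 1214, 1439 and 1741 in WT and 2405, 3672 and 3561 in *tmt2-S*. The nitrate transporter gene *NRT1.5* was among those that fell, from 7.92, 10.6 and 22.3 FPKM to 1.14, 0.36 and 0.12 FPKM.

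A survey of every family with at least 10 tested genes, grouped by annotated product or symbol stem, placed these lists among the rest. Among families of at least 20 tested genes, those with the largest share moving in 1 direction were HSP symbols (16 of 21 risen), AGP symbols (19 of 27 fallen), GDSL lipases by product (29 of 44 fallen), pectin lyase-like proteins (25 of 38 fallen), IQD scaffold proteins that bind microtubules and calmodulin (18 of 28 fallen) and SAUR-like proteins (32 of 52 fallen). The superfamily of protease inhibitors, lipid transfer proteins and 2S albumins had 27 of 44 fallen, although a narrower list of lipid transfer proteins had 6 risen and 5 fallen of 14. Serine carboxypeptidase-like SCPL proteins had 15 of 25 fallen and NPH3 proteins of phototropism 15 of 28. Leucine-rich repeat receptor kinases had 42 of 84 fallen and 14 risen. At the other end, tetratricopeptide repeat proteins had 27 risen and 19 fallen of 234, RPL ribosomal proteins 2 risen of 21 and small nuclear ribonucleoproteins of splicing 2 fallen of 22.

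**Figure D3:**
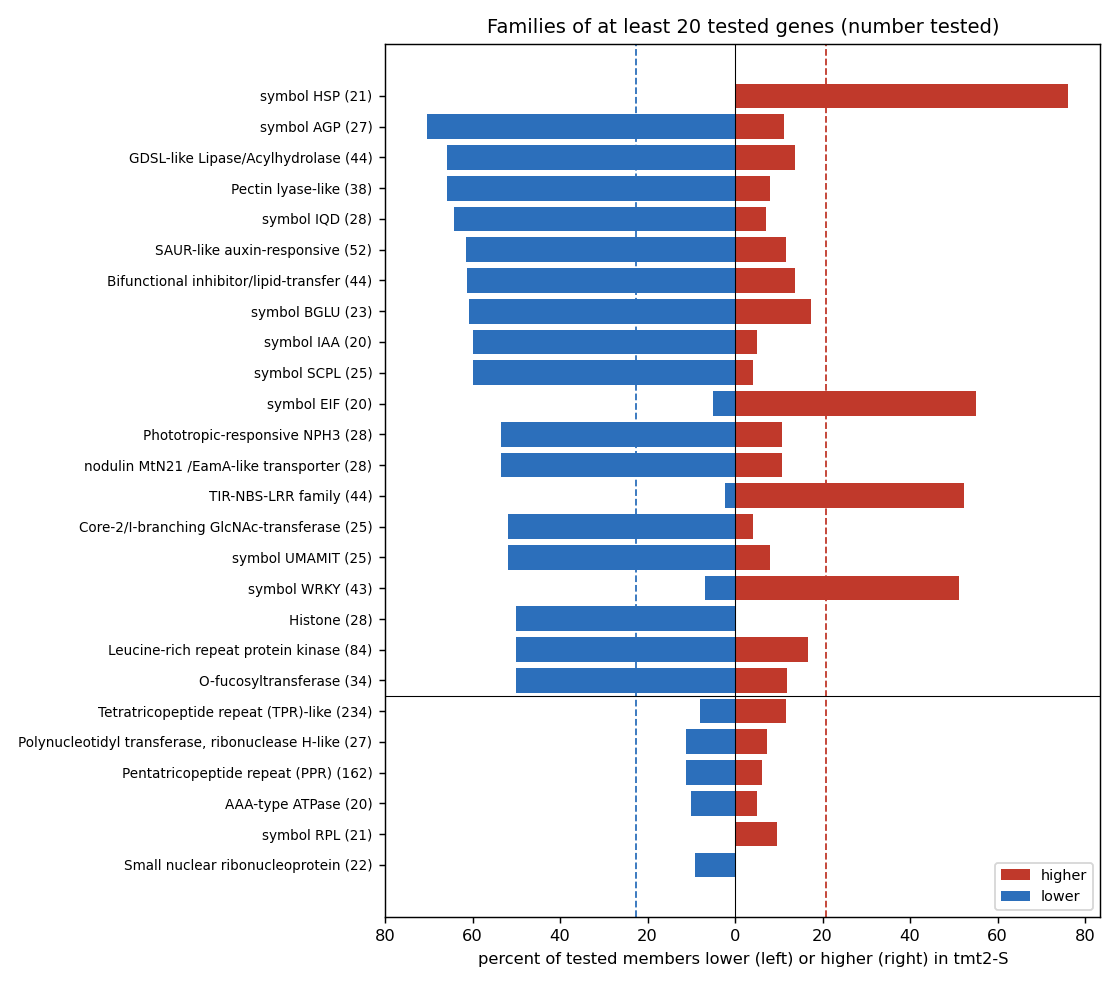
Percent of the tested genes of a family that fell (blue, left) or rose (red, right) in *tmt2-S* (x axis) for families of at least 20 tested genes (y axis, number tested in parentheses). The 20 families above the line have the largest share in 1 direction and the 6 below it the smallest, and the dashed lines are the shares over all genes tested, 22.6% fallen and 20.7% risen. Families were ranked by these shares, so the plot is a description.

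With sucrose and at equal age, fewer genes were called in the genotype contrast. In *tmt2-L-Suc* against WT-Suc, 10% of genes had risen and 10.4% had fallen. Of the 3831 genes that rose without sucrose 645 (16.8%) also rose with sucrose and 438 (11.4%) fell, and of the 4185 that fell without sucrose 516 (12.3%) also fell and 363 (8.67%) rose. Genes called in the same direction in both contrasts thus outnumbered those called in opposite ones. Without WT-Suc 2 fewer genes were called with sucrose, 784 risen (4.17%) and 748 fallen (3.98%), and 341 genes then rose in both contrasts, 268 fell in both, 146 rose without sucrose and fell with it, and 126 fell without sucrose and rose with it. The starvation markers had 0 risen and 14 fallen of 20 with sucrose (median -1.31), and the amino acid catabolism genes 0 risen and 9 fallen of 22 (median -0.92). Without WT-Suc 2 the fallen were 4 and 3 (medians -1.17 and -0.68), and they were also 4 and 3 without *tmt2-L-Suc* 3, and 4 of the amino acid genes fell without *tmt2-L-Suc* 2. GDSL lipases had 23 of 50 risen and 2 fallen with sucrose, and histones 17 of 40 risen and 1 fallen. Without WT-Suc 2 these were 14 and 2 risen, and without WT-Suc 3 they were 13 and 6. Histones also had 11 and 6 risen without *tmt2-L-Suc* 1 and 3. SAUR genes were low in both contrasts, with 24 of 52 fallen and 2 risen with sucrose, and 21 fallen without WT-Suc 2.

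The difference between both genotype contrasts was tested as an interaction, which held at an adjusted p of at most 0.05 for 34.6% of genes tested, 16.6% with the higher value without sucrose and 18.1% with the lower. Without WT-Suc 2 it held for 2354 and 2653 genes, against 3068 and 3342 with all libraries. Sucrose, age and growth class are joined in this interaction. Among the starvation markers it was higher without sucrose for 16 of 20 and lower for 0, and among amino acid catabolism genes for 18 of 22 and 0. Photosystem subunits had 20 of 26 lower and 0 higher, mitotic cyclins and activators 17 of 25 lower and 0 higher, and kinesins 22 of 33 lower and 1 higher. Without WT-Suc 2 the counts were 14 and 18 for starvation and amino acid genes and 15, 15 and 20 for the other 3 lists, and 13 photosystem genes were lower without *tmt2-L-Suc* 1. SAUR genes had 30 of 52 lower and 4 higher, and 28 lower without WT-Suc 2. In contrast, 3 of 14 salicylate genes and 3 of 32 light and shade genes were higher in this test, and 0 and 3 were lower (3 and 2 higher and 0 and 5 lower without WT-Suc 2). For *BCAT-2*, which read 6.69, 15.8 and 4.35 FPKM in WT-Suc and 2.77, 1.28 and 0.44 FPKM in *tmt2-L-Suc*, the 2 contrasts differed by 7.08 ± 0.95 on the log2 scale (adjusted p = 0.000270), and by 6.36 ± 0.88 without WT-Suc 2 (adjusted p = 0.00079).

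**Figure D4:**
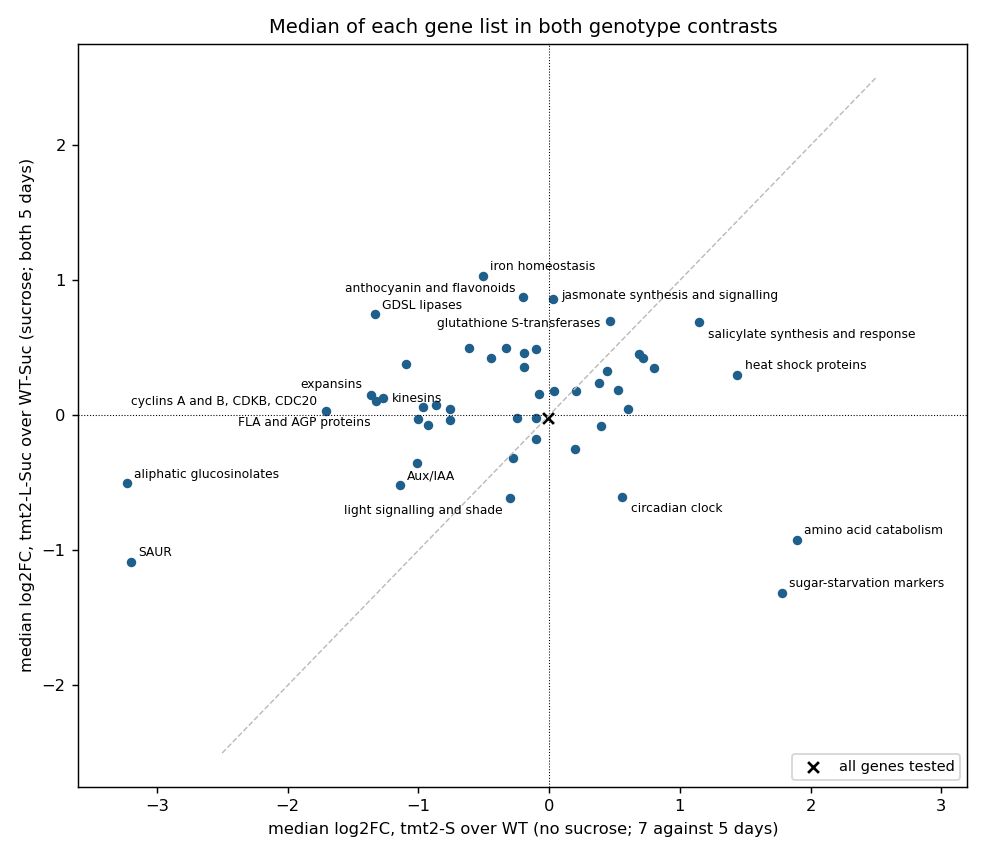
Median log2FC of 48 gene lists in *tmt2-S* over WT without sucrose (x axis) and in *tmt2-L-Suc* over WT-Suc (y axis), with all genes tested as a cross and equal values on the dashed line. Amino acid catabolism and starvation markers lie at the lower right, SAUR and aliphatic glucosinolate genes at the lower left, and GDSL lipases and iron homeostasis at the upper left.

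Markers of tissues that the cut shoots could hold in different amounts were read beside these results, and their part in them was not tested. The label of above-ground tissue held, since the summed FPKM of 6 mesophyll markers was 109595, 110281 and 109801 in WT and 95946, 69014 and 79093 in *tmt2-S*, while 6 of 13 root markers had enough counts to be tested and their summed FPKM lay between 13.01 and 22.8 in WT and between 14.7 and 26.1 in *tmt2-S*. Of 19 tested shoot meristem and leaf primordium markers 10 fell and 2 rose, none of the rises holding without WT 2, without WT 3, without *tmt2-S* 1 or without *tmt2-S* 2, and their summed FPKM was 125, 123 and 139 in WT and 111, 99.8 and 95.9 in *tmt2-S*. *STM*, which maintains the meristem, read 1.63, 2.02 and 1.96 FPKM in WT and 2.93, 1.91 and 2.32 FPKM in *tmt2-S* and was not called, while *ANT*, of growing leaf primordia, fell from 13.1, 10.8 and 11.7 FPKM to 7.91, 6.89 and 5.98 FPKM (log2FC -0.82 ± 0.16). Stomatal lineage markers summed to 29.0, 27.1 and 31.8 FPKM in WT and 30.4, 26.2 and 30.9 FPKM in *tmt2-S*, with 1 of 8 risen and 1 fallen. Trichome markers, which mark true leaves, had 5 of 6 fallen (3 without *tmt2-S* 3) and summed to 23.9, 15.3 and 15.6 FPKM in WT and 10.4, 7.69 and 7.74 FPKM in *tmt2-S*. Seed markers summed to 16.2, 6.03 and 11.5 FPKM in WT and 0.92, 0.57 and 0.33 FPKM in *tmt2-S*, with 3 of 5 tested markers fallen.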

How the data were processed

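RNA of above-ground seedling tissue was sequenced in 12 libraries, 3 for each of 4 groups, which were assigned from genotype, treatment and age in the labels. The authors filtered low-quality reads, aligned the rest to TAIR10.1 with Bowtie2 and quantified genes with RSEM. The deposited expected counts are RSEM's reads per gene without normalization, and the deposited FPKM values were scaled by the authors to the length of each transcript and the mapped fragments of each library. A further 12 TPM columns and 12 columns of averages were not used here.

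After rounding to integers, the expected counts of all 12 libraries entered 1 quasi-likelihood model with a mean per group (edgeR 4.0.16, R 4.3.3), with TMM scaling and the low-count filter filterByExpr. The contrasts were *tmt2-S* minus WT, *tmt2-L-Suc* minus WT-Suc and their difference, with two-sided tests and p adjusted by Benjamini-Hochberg over all genes tested. Libraries held 20187960 to 21370051 expected counts, which limits the precision of low genes. Pairs of replicates differed by more than counting error (chi-square per degree of freedom 11.2 to 84.2), so none was counted as a repeat. With 3 against 3 libraries an exact permutation test of a single value cannot go below p = 0.1, and none was run. The model was tested on data simulated for *tmt2-S* against WT. It recovered 59 of 100 genes changed 2-fold and 100 of 100 changed 4-fold, and it called 7 others among 18109 genes. Only 100 genes were changed at each fold there, against 43.3% of genes called in the comparison itself. Recovery with so many changes was not tested. Gene lists are described by counts and medians, with no test. The per-library medians of a list are those of log2(CPM + 0.5) minus log2 of the WT mean CPM + 0.5.

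The comparison, the lists and the motifs were chosen with earlier results of these data known. Genes named are *TMT2*, key members of each list, the 3 called members with the largest rise and the 3 with the largest fall in a list whose 2 groups do not overlap and whose mean reaches 5 FPKM in 1 group, and the 10 DEGs per direction with the largest FPKM difference. Gene positions, names and promoter sequences are from RefSeq's annotation of TAIR10.1, whose identifiers match those of the table. Alternatives were median-of-ratios and total-count scaling, DESeq2 1.42.0, other filters, the 2 groups alone, a replicate block, a test against the fold threshold, and leaving out each library, those of the sucrose groups after the data were seen. Tables were handled with Python 3.11.15, pandas 2.3.3 and numpy 2.4.6.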

Additional observations from a re-analysis of the deposited data

Results flagged for a closer look

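The genotype contrast without sucrose differed from that with sucrose for 6410 genes, by the interaction term of the edgeR model at an adjusted p of at most 0.05. The contrast without sucrose also holds a difference of 2 days in age, which the other does not. The *tmt2* seedlings of the contrasts also belong to different growth classes by their names. Sucrose, age and growth class cannot be told apart in this difference. The 12 genes below were picked from the lists after their values were seen, and each is given as the log2FC without sucrose minus the log2FC with sucrose.

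In the sugar-starvation and amino acid lists the difference was 7.08 for *BCAT-2* (AT1G10070), 4.89 for *SEN1* (AT4G35770) and 4.46 for *ASN1* (AT3G47340), and all 3 fell with sucrose. The fall with sucrose lost its call without WT-Suc 2, a library with high seed storage transcripts, or without *tmt2-L-Suc* 3 for *BCAT-2* and *SEN1*, and without *tmt2-L-Suc* 2 for *BCAT-2*. It was 5.92 for the amino acid exporter gene *UMAMIT33* (AT4G28040) and 4.78 for the iron store *FER1* (AT5G01600), which also rose without sucrose and fell with it. *FER1* read 184, 354 and 269 FPKM in WT-Suc and 53.7, 52.5 and 45.2 FPKM in *tmt2-L-Suc*. Of the growth and photosynthesis genes, the difference was -6.02 for *EXPA8* (AT2G40610), -2.47 for *LHCB2.3* (AT3G27690) and -1.58 for *TUB5* (AT1G20010). *EXPA8* and *LHCB2.3* were not called with sucrose, while *TUB5* fell in both contrasts, with sucrose not when WT-Suc 2 or *tmt2-L-Suc* 3 was left out. For *GSTU20* (AT1G78370) it was -3.96, with no call with sucrose. The GDSL lipase gene AT4G18970 differed by -3.98, the heat shock factor *HSFC1* (AT3G24520) by -3.45 and *ORG1* (AT5G53450) by -3.50, and these 3 fell without sucrose and rose with it, although the rise of AT4G18970 lost its call without WT-Suc 2 or WT-Suc 3. All 12 differences kept an adjusted p of at most 0.05 with any 1 sucrose library left out. *ORG1* read 37.7, 23.03 and 19.3 FPKM in WT, 12.01, 15.3 and 13.9 FPKM in *tmt2-S*, 17.2, 12.3 and 13.9 FPKM in WT-Suc and 81.2, 85.0 and 82.8 FPKM in *tmt2-L-Suc*.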

How the results depend on the processing

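Counts of genes risen and fallen stayed within 1.5 times of 3831 and 4185 under every alternative run, and with 1 library left out they ranged from 3022 to 4104 and from 3560 to 4360. DEGs higher and lower ranged from 1255 to 1583 and from 2082 to 2437 with 1 library left out, and they were 694 and 901 when tested against the fold threshold itself. The replicate numbers did not pair the libraries by the rule used (correlations of same-numbered deviations 0.17, -0.04 and 0.33), and number 2 did not correlate best with its own number. With a replicate block 3510 genes rose and 3943 fell, with 1418 DEGs higher and 2194 lower. Of 363 named genes called, 39 lost the call in at least 1 alternative, 18 of them in one that kept all libraries, and 0 changed sign.

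The median over all genes tested was 0.012 with median-of-ratios size factors, 0.024 with total counts only, -0.037 with no filter and 0.012 with DESeq2. Of 336 list medians compared with all libraries kept, 22 moved by more than the spread between replicates, and the cause was not tested beyond the change in the genes that enter. With no filter on low counts they were -0.62 for papain-like proteases, -0.78 for D-type cyclins, -1.40 for pectate lyases and polygalacturonases, -1.44 for peroxidases, -1.98 for SAUR, 1.56 for salicylate genes, -0.96 for bHLH, 0 for glutathione S-transferases, 0.47 for UDP-glycosyltransferases, 0.055 for ABC transporters, -0.63 for indole glucosinolates and -0.49 for amino acid transporters. With a mean of at least 10 counts in WT or *tmt2-S* they were -0.9997 for pectate lyases, 0.85 for WRKY and 0.67 for NAC. With the WT and *tmt2-S* libraries only they were -0.91 for pectate lyases, -0.17 for light and shade, 0.84 for WRKY, 0.70 for NAC, -0.70 for bHLH, 0.61 for glutathione S-transferases and 0.022 for iron homeostasis, where the sign turned.

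With 1 library left out in turn, the list medians ranged from -0.030 to -0.00028 for all genes tested, -0.76 to -0.45 for starch metabolism, -0.027 to 0.29 for trehalose 6-phosphate enzymes, -1.09 to -0.84 for light-harvesting antenna, -0.13 to 0.0013 for pentatricopeptide repeat proteins, -0.081 to 0.073 for 26S proteasome, -0.49 to -0.17 for papain-like cysteine proteases, -1.07 to -0.68 for D-type cyclins and -0.84 to -0.49 for histones. They ranged from -1.51 to -1.12 for kinesins, -1.36 to -1.12 for expansins, -0.27 to 0.35 for xyloglucan endotransglucosylases, -1.57 to -1.33 for fasciclin-like and arabinogalactan proteins, -1.26 to -1.01 for pectate lyases and polygalacturonases, -1.34 to -0.77 for class III peroxidases, -1.37 to -1.19 for GDSL lipases, -2.91 to -2.31 for SAUR and -1.43 to -0.96 for Aux/IAA. For the other lists that moved they ranged from -0.42 to -0.26 for light signalling and shade, 0.51 to 1.02 for WRKY factors, 0.47 to 0.62 for NAC factors, -0.92 to -0.71 for bHLH factors, 0.22 to 0.61 for TIR-NBS-LRR and NB-ARC receptors, 0.094 to 0.55 for glutathione S-transferases, 0.59 to 1.07 for UDP-glycosyltransferases, -0.40 to -0.19 for amino acid transporters and -0.76 to -0.13 for iron homeostasis. They were 0.22 to 0.55 for autophagy, 0.10 to 0.29 for ABC transporters, -0.29 to 0.27 for jasmonate genes, -0.15 to 0.017 for Rubisco and the Calvin cycle and -0.36 to 0.077 for flavonoid genes. The range crossed 0 for the xyloglucan, trehalose, proteasome, pentatricopeptide, jasmonate, Rubisco and flavonoid lists. Leaving out each sucrose library in turn was added after the data were seen, because WT-Suc 2 stood apart. Genes risen and fallen with sucrose then ranged from 784 to 2356 and from 748 to 2407, and both counts were lowest without WT-Suc 2.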
